A study of Mus musculus with 4 samples.

Results

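The C/EBP family (CCAAT/enhancer-binding proteins) was followed in C8-D1A cells, an established mouse line labelled as astrocytes. The genes were taken by symbol from the deposited expression table: Cebpa, Cebpb, Cebpd, Cebpe, Cebpg and Cebpz, 6 of 24169 genes. The family was picked because Cebpb and Cebpd had lower values in treated cells, so every difference between treated and untreated cells given for these 6 genes is a description without a test. The 2 control libraries came from untreated cells and the 2 MBP libraries from cells kept for 24 h in 1 mM MBP, all of the same line. Sets of 4 values follow the order control 1, control 2, MBP 1, MBP 2. The labels do not spell out MBP. The series title names DBP, dibutyl phthalate, whose main metabolite is monobutyl phthalate, and MBP here means the compound and not the gene Mbp. Nothing in the labels tells whether the 2 libraries of a group are separate cultures. The p-values here therefore set group differences only against the spread among these samples, which may be technical.

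C/EBP proteins bind DNA through a basic region and pair with each other through a leucine zipper, a fold known as bZIP. C/EBPβ and C/EBPδ are induced by interleukin-6, interleukin-1 and bacterial lipopolysaccharide in many cells, astrocytes among them, and switch on acute-phase and inflammatory genes. C/EBPα drives differentiation of granulocytes, liver cells and fat cells, C/EBPε acts late in granulocyte maturation, and C/EBPγ lacks a classical activation domain and works mostly as a partner of other bZIP proteins. Cebpz carries the family name but encodes a different kind of protein, related to yeast factors that build ribosomes in the nucleolus. The deposited annotation shows the same division, with the Pfam domain bZIP_2 for Cebpa, Cebpb, Cebpd, Cebpe and Cebpg and the domain CBF for Cebpz. CHOP, the product of Ddit3, is also called C/EBP zeta in some texts and is a different gene from Cebpz.

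Expression was given as FPKM, a count scaled by gene length and library depth, which allows levels of different genes to be compared per length. The steps between low FPKM values showed what 1 read was worth in each library, so that reads could be recovered. Library depth recovered in this way was 23571000 to 25907000 reads. Over the whole table, 12403 genes reached 1 FPKM or more in 2 or more libraries and were tested with limma on log2(FPKM + 1). The test called 0 genes (0%) at an adjusted p under 0.05, with 1201 genes at an unadjusted p under 0.05 and a lowest adjusted p of 0.392. Among these 12403 genes the MBP libraries both lay under the controls for 23.5% and both lay above them for 21.3%, so groups did not overlap for 44.8% in either direction. For Cebpb, Cebpd and Cebpg they did not either, which the choice of the family partly fixes and from which nothing is read. The labelled cell type was poorly marked. Of 11 astrocyte markers only Vim, Glul, S100b and Sox9 passed the filter, and Slc1a3, an astrocyte glutamate transporter, had 0, 0, 0 and 1 reads. Sox10, which marks cells of the oligodendrocyte lineage, had 87.8 to 99.97 FPKM. Summed marker levels were lower with MBP in 4 lists, but most of each sum was 1 gene. The 11 astrocyte markers summed to 549.6 to 553.6 FPKM in controls and 509.0 to 521.8 with MBP, of which Vim made up 487.0 to 531.2. On the log2 scale Vim and S100b stood at -0.10 and -0.12, both with groups that did not overlap. Glul stood at 0.05, with groups that overlapped, and Sox9 at 0.07, with both MBP values above both controls. The 7 of 8 oligodendrocyte markers in the table summed to 119.0 to 123.5 and 108.8 to 109.1 FPKM, mostly Sox10. All 5 tested had differences below 0, against 51.6% of all tested genes. Sums of 5 of 6 neuron markers were 32.6 to 35.4 and 25.6 to 26.0 FPKM, mostly Tubb3, while Map2 stood at 0.09. Those of 6 of 7 fibroblast markers were 7.36 to 7.96 and 6.62 to 7.05 FPKM, mostly Pdgfrb. The 3 of 5 adipocyte markers in the table summed to at most 0.0907 FPKM. Of all these lists no marker in the table was at 0 in every library, and their part in the values of the C/EBP genes was not tested.

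The untreated cells expressed Cebpz and Cebpg well, Cebpb and Cebpd weakly, Cebpa at under 1 FPKM and Cebpe not detectably. In MBP-treated cells Cebpb stood at 0.577 and Cebpd at 0.489 of the control mean, both lower in 2 of 2 libraries, while Cebpg and Cebpz stood at 1.10 and 1.04. Of the 6 genes, 4 passed the FPKM filter, and Cebpa and Cebpe did not.

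The promoters of 3 of the 6 genes, Cebpa, Cebpb and Cebpg, were in the RefSeq promoter table (GRCm38.p6), and these 3 are shown. Those of Cebpd, Cebpe and Cebpz were not in it. Each run is the 250 bases before the RefSeq start site, on the strand of the gene. Capitals mark matches on either strand to any of 6 motifs. These were TGACG (the core of the cAMP response element, through which CREB acts), CCAAT, TTGCNNAA (a C/EBP site), TTCNNNGAA (a STAT site), GGGCGG (the GC box bound by Sp1) and TATAAA (the TATA box). The windows are chr2:167688665-167688914 (plus strand) for Cebpb, chr7:35119043-35119292 (plus strand) for Cebpa and chr7:35056567-35056816 (minus strand) for Cebpg.
Cebpb: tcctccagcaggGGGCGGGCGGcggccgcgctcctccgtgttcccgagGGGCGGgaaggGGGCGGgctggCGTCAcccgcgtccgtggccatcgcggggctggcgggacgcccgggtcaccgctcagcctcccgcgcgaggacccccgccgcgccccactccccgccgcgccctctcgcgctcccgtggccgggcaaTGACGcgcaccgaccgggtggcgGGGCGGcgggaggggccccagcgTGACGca
Cebpa: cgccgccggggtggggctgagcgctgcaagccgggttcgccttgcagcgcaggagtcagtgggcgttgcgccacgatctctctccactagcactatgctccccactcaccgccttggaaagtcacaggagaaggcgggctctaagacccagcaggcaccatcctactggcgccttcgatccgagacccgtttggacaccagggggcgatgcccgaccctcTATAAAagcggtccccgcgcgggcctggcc
Cebpg: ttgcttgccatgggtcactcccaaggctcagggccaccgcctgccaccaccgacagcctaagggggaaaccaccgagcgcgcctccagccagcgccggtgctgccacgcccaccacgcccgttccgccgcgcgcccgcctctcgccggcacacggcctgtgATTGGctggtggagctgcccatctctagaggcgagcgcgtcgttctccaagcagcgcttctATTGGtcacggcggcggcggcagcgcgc

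The windows of the 3 genes held different motifs. The Cebpb window held TGACG 3 times, at -180 to -176 on the strand opposite to the printed one and at -53 to -49 and -7 to -3 on the printed strand, counted from the start site. It also held GGGCGG 5 times, of which the pair at -238 and -234 overlap. The Cebpa window held only TATAAA, at -30 to -25, and the Cebpg window held CCAAT 2 times, both on the opposite strand, at -89 to -85 and -28 to -24. Of 32851 promoter windows of this length, 17.8% held TGACG, 32.7% GGGCGG, 12.4% TATAAA, 33.8% CCAAT, 9.56% TTGCNNAA and 7.02% TTCNNNGAA, the last 2 being in none of the 3 windows. GC content was 81.6% for Cebpb, 70.8% for Cebpg and 66.4% for Cebpa, against a median of 52.4% over all windows. A match is a description of the letters and not a bound site.

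Cebpb lies on chromosome 2 (167688915 to 167690418, plus strand, GRCm38) as a single exon of 1504 bases, next to the GC-richest of the 3 printed windows, and encodes the factor also known as NF-IL6. Its level was 2.62 FPKM in control 1, 3.19 in control 2, 1.89 in MBP 1 and 1.46 in MBP 2. Both treated libraries lay below both controls, and the highest treated value was 0.72 of the lowest control value. These levels rested on few reads, 96, 113, 68 and 57 in the same order. The 95% counting interval (exact Poisson) of MBP 1 reached 2.39 FPKM and that of control 1 began at 2.12, so that pair overlapped within counting error. The interval of control 2 began at 2.63 and lay clear of both treated libraries. Such intervals cover counting error only, and Cebpb was picked on these values, so they are not a test. The group means were 2.90 ± 0.40 and 1.68 ± 0.30 FPKM (SD, n = 2 each), and the difference of log2(FPKM + 1) was -0.55. This scale understates changes of genes as low as this one, and the log2 ratio of the mean FPKM was -0.79. Within groups the same quantity differed by 0.21 between the controls and by -0.23 between the MBP libraries, less than between the groups. Cebpb protein exists as a long activating form and a short inhibitory form made from 1 messenger RNA, and gene-level reads do not separate them.

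Cebpd lies on chromosome 16 (15887286 to 15891031, plus strand) and encodes C/EBPδ, a factor that is usually low in resting cells and induced by inflammatory signals. Its level was 2.17 and 2.48 FPKM in control 1 and control 2, and 1.06 and 1.22 FPKM in MBP 1 and MBP 2. The groups did not overlap, and the highest treated value was 0.56 of the lowest control value. Reads numbered 198 and 219 in the controls against 95 and 118 in the treated libraries, and no counting interval of a treated library met one of a control. The highest end among the treated libraries was 1.46 FPKM and the lowest end among the controls 1.88. These intervals cover counting error only and not variation between cultures. Cebpd was picked on these same values, so their separation is not a test. The means were 2.33 ± 0.219 and 1.14 ± 0.111 FPKM (SD, n = 2 each), with a difference of -0.64 in log2(FPKM + 1) and a log2 ratio of means of -1.03. Between the replicates that quantity differed by 0.13 in controls and 0.11 in MBP. In rank order from the lowest difference upward, Cebpd stood at place 62 and Cebpb at place 92 of the 12403 genes, which describes the values they were picked on.

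Cebpa, the factor of granulocyte, liver and fat cell differentiation, lies on chromosome 7 (35119293 to 35121928, plus strand). It had 0.686 and 0.644 FPKM untreated and 0.491 and 0.542 with MBP, all under the filter of 1. Reads numbered 44, 40, 31 and 37. Both treated values lay under both controls, but every treated counting interval overlapped every control interval. Such overlap of single libraries is not a test between the groups, so whether they differ is left undecided. Cebpe on chromosome 14 (54710363 to 54712174, minus strand), the granulocyte member, had 0 reads in all 4 libraries. A count of 0 allows up to 3 reads, which is 0.0933 to 0.103 FPKM depending on the library. These intervals and limits cover counting error only. The bulk values cannot tell fewer cells expressing a gene from less RNA of it per cell.

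Cebpg, the member without a classical activation domain, lies on the same chromosome as Cebpa (35046422 to 35056573, minus strand), 62720 bases away from it. Untreated cells had 9.44 and 9.40 FPKM and treated cells 9.71 and 10.9. The groups did not overlap, with both treated values higher, but MBP 2 stood further from MBP 1 than MBP 1 did from either control. The difference was 0.12 in log2(FPKM + 1), against 0.16 between the MBP libraries and -0.01 between the controls. Cebpz, the nucleolar protein, lies on chromosome 17 (78919006 to 78937070, minus strand). It had 17.8, 16.8, 18.3 and 17.5 FPKM, groups that overlapped, with a difference of 0.05. The neighbouring genes Cebpa and Cebpg thus had differences of opposite sign.

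**Figure D1:**
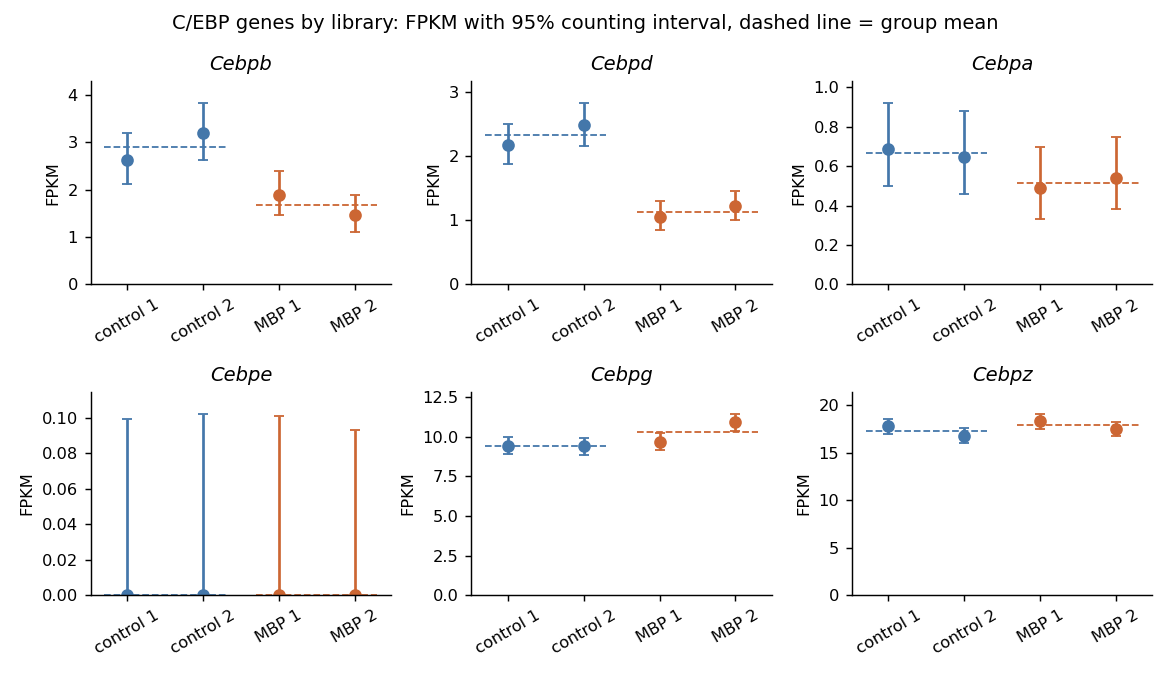
Each panel plots 1 C/EBP gene, with FPKM on the vertical axis and the 4 libraries on the horizontal axis. Bars are 95% exact Poisson counting intervals from recovered reads (for Cebpe the limit of 3 reads), and dashed lines are group means. Cebpd shows 2.17 and 2.48 FPKM in controls against 1.06 and 1.22 in MBP with no overlap of the bars, whereas for Cebpa all bars overlap. The bars cover counting error only and are not a test, and Cebpb and Cebpd were picked on these values.

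With the FPKM as deposited, the order of levels was the same in each library. Cebpz came first at 16.8 to 18.3 FPKM over the 4 libraries, then Cebpg at 9.40 to 10.9, Cebpb at 1.46 to 3.19, Cebpd at 1.06 to 2.48, Cebpa at 0.491 to 0.686 and Cebpe at 0. Only the ranges of Cebpb and Cebpd overlapped over the 4 libraries, and within each group they did not. The order of this pair depends on the gene model. The GENCODE exon length of Cebpd is 3746 bases, while the RefSeq span is 2260, and for Cebpb the lengths are 1504 and 1518. With the RefSeq spans Cebpd came to 3.60 and 4.11 FPKM in the controls and Cebpb to 2.60 and 3.16, which puts Cebpd first. Differences between groups within 1 gene do not depend on its length, apart from the constant added before the logarithm.

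The makeup of the bZIP members differed between the groups accordingly. Summed over Cebpa, Cebpb, Cebpd, Cebpe and Cebpg, the family reached 14.9 and 15.7 FPKM untreated and 13.1 and 14.1 with MBP. With GENCODE lengths Cebpg made up 63.3% and 59.8% of this sum in control 1 and control 2, against 73.9% and 77.2% with MBP. Cebpb made up 17.6% and 20.3% in controls against 14.4% and 10.3%, and Cebpd 14.6% and 15.8% against 8.05% and 8.60%. Cebpg exceeded Cebpb 3.60-fold and 2.95-fold without MBP and 5.14-fold and 7.47-fold with it. With the GENCODE lengths Cebpb stood at 1.21 and 1.29 times Cebpd without MBP and 1.78 and 1.20 times with it, ranges that overlapped. With the RefSeq spans, chosen after seeing the data, the ratios were 0.722, 0.768, 1.07 and 0.719, so that Cebpd led in 3 of 4 libraries. On those lengths Cebpd made up 22.05%, 23.7%, 12.7% and 13.5% of the sum, Cebpb 15.9%, 18.2%, 13.5% and 9.71% and Cebpg 57.8%, 54.3%, 70.2% and 73.2%. With either set of lengths the shares of Cebpb and Cebpd were lower, and that of Cebpg higher, in both MBP libraries than in both controls. These shifts restate the lower values of Cebpb and Cebpd on which the family was picked. A changed length rescales a gene alike in all 4 libraries, so the second set of lengths is no separate check. These shares are of transcripts, and protein amounts were not measured.

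**Figure D2:**
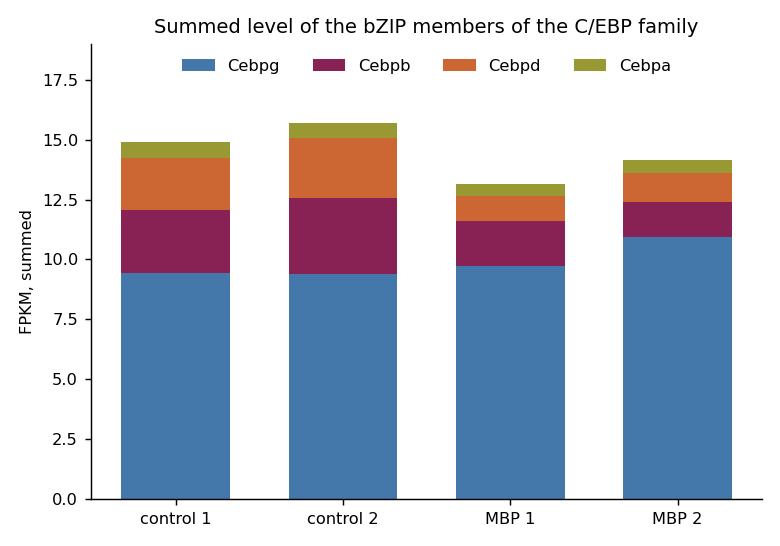
Stacked bars give the FPKM of Cebpg, Cebpb, Cebpd and Cebpa, summed as deposited, for each of the 4 libraries, with Cebpe at 0 in all. The Cebpg segment runs from 9.40 to 10.9 FPKM while the Cebpb and Cebpd segments are shorter in both MBP libraries.

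Transcript composition moved with the differences over the whole table. In the eighth of tested genes with the lowest GC content the median difference of log2(FPKM + 1) was 0.08, and in the eighth with the highest it was -0.09. The transcripts of Cebpb, Cebpa and Cebpe are GC-rich, at 67.2%, 62.6% and 61.5%, and fell in the range of the highest eighth. Cebpd at 51.6% fell in the sixth, where the median was -0.05, and Cebpg and Cebpz, at 43.3% and 43.4%, in the second, where it was 0.06. After a loess correction for GC content and length the difference of Cebpb was -0.40, that of Cebpd -0.61, that of Cebpg 0.06 and that of Cebpz 0.00096. Cebpd therefore kept most of its difference, Cebpb moved from -0.55 to -0.40, and the small positive values of Cebpg and Cebpz shrank. The difference of Cebpa, -0.13, lay between the quartiles of the highest eighth, -0.17 and -0.02. Those quartiles are of genes that passed the filter, which Cebpa did not. The added 1 shrinks its difference more, and the log2 ratio of its mean FPKM was -0.36, so its place between them is not read further. What part GC content had in the values was not tested beyond this correction.

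**Figure D3:**
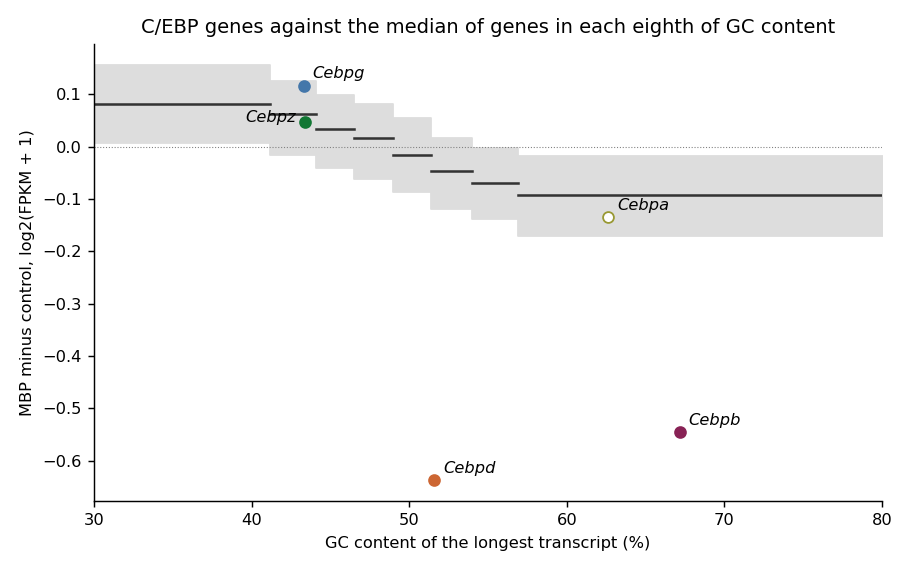
The horizontal axis gives the GC content of the longest transcript in percent and the vertical axis the difference MBP minus control in log2(FPKM + 1). Black lines and grey bands are the median and quartiles of tested genes in each eighth of GC content, and circles are C/EBP genes (open: under the filter). Cebpb at -0.55 and Cebpd at -0.64 lie under the bands, whereas Cebpa, Cebpg and Cebpz lie within them. For Cebpa, which is under the filter, the added 1 shrinks the difference more than for the genes of the bands.

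Reads of these genes can also be shared with genes on the other strand. In GENCODE, 312 of the 1504 exon bases of Cebpb (20.7%) are exon of Tmem189 on the opposite strand, and 562 of the 3746 exon bases of Cebpd (15.0%) are exon of Spidr. For Cebpz the overlap with Cebpzos covers 171 of 4658 bases, and for Cebpa that with the antisense gene Gm45091 covers 51 of 2636. The libraries were directional, but whether counting used the strand is stated neither in the labels nor in the processing notes, so without it these reads cannot be told apart. Only gene-level values of the overlapping genes were at hand. Tmem189, which takes part in making plasmalogen lipids, had 6.06 and 6.94 FPKM untreated and 6.05 and 6.40 with MBP, a difference of -0.05. Spidr, a DNA repair scaffold, had 10.5 in each control and 10.6 and 10.8 in MBP, a difference of 0.03. Such values do not show the reads on the shared bases, and the part of those reads in the values of Cebpb and Cebpd was not tested.

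Genes within 100 kb of a C/EBP gene were compared for position. The table held 32 such genes other than the family, of which 17 passed the filter. In limma's test 0 were called, and 5 had both MBP values under both controls and 2 both above, against 23.5% and 21.3% (together 44.8%) of all tested genes. Their differences ran from -0.25 to 0.18. Near Cebpd, Mzt2, a microtubule-organizing protein, stood at -0.13 and Prkdc, the DNA-dependent protein kinase, at 0.04. Next to Cebpa and Cebpg, Pepd, a dipeptidase, stood at -0.12, with groups that did not overlap, and the unclassified transcript Gm45094 inside Cebpg at -0.25, with groups that overlapped. Around Cebpe, Psmb5, a proteasome subunit, stood at -0.20, 1700123O20Rik at -0.10, Cdh24, a cadherin, at -0.07 and Acin1, a splicing-associated nuclear protein, at -0.05. These neighbours of Cebpe were expressed while Cebpe itself had no read, with Acin1 at 28.7 to 30.7 FPKM. Around Cebpz, Cebpzos stood at -0.20 with 9.04 and 8.78 FPKM untreated and 7.49 and 7.78 with MBP, while Prkd3, a protein kinase, stood at 0.18. Ndufaf7, an assembly factor of respiratory complex I that starts 65 bases from Cebpz on the other strand, stood at 0.10, Eif2ak2, the RNA-activated kinase PKR, at 0.12, Gpatch11 at -0.12, Heatr5b at 0.01 and the pseudogene Gm6548 at 0.04.

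Partners of the C/EBP proteins were taken from a list of bZIP genes, of which 12 of 12 were in the table and 10 passed the filter. In limma's test 0 were called (0% over all genes). Of the 10, 8 had a difference below 0, against 51.6% of all tested genes, 4 had both MBP values under both controls (23.5% of all) and 1 had both above (21.3% of all). The median difference was -0.06, against -0.0048 over all tested genes, and 0.02 after the GC and length correction. Without 1 library it ran from -0.11 to -0.02. Atf4, the stress factor that pairs with C/EBPγ and C/EBPβ, was the most abundant at 168.7 and 183.3 FPKM untreated and 171.3 and 168.4 with MBP, groups that overlapped. Ddit3, which encodes the C/EBP-like inhibitor CHOP, had 12.6 and 11.1 FPKM untreated and 11.3 and 11.7 with MBP, also overlapping. Atf5 stood at -0.07, Jun, a subunit of AP-1, at -0.10 and Atf2 at 0.12, the last 2 with groups that did not overlap. Atf3, a stress-induced repressor named here after its values were seen, came closest to Cebpb and Cebpd, with 3.64 and 3.74 FPKM untreated and 2.58 and 2.72 with MBP, a difference of -0.36.

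Genes that act on the C/EBP genes or proteins formed the next list, with 21 of 23 in the table and all 21 tested. In limma's test 0 were called. There were 6 with a difference below 0, 3 with both MBP values under both controls and 6 with both above, against 51.6%, 23.5% and 21.3% of all tested genes, and the median was 0.05. Mapk3, a kinase that phosphorylates C/EBPβ, had 57.5 and 58.8 FPKM untreated and 50.7 and 53.7 with MBP, groups that did not overlap, with a difference of -0.15 and a transcript GC content of 57.6%. Celf1, an RNA-binding protein that acts on translation of C/EBP messengers, stood at 0.05, the histone methyltransferase Ehmt2 at -0.14 and Rps6ka3, a kinase of C/EBPβ, at 0.05. Stat3, through which interleukin-6 induces Cebpd, and named here after its values were seen, had 8.77 and 8.24 FPKM untreated and 8.33 and 7.86 with MBP, groups that overlapped. Its feedback target Socs3, also named after its values were seen, had 7.06 and 8.47 FPKM against 7.13 and 6.46.

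Inflammatory and acute-phase genes that C/EBPβ and C/EBPδ are known to activate were mostly near the detection limit in both groups. Of 24 listed genes 20 were in the table and 5 passed the filter, and the other 15 had at most 29 reads in any library. In limma's test 0 were called, and the median difference was -0.03 over the 5, turning to 0.03 without control 1. Ccl2, a chemokine that draws monocytes, had 29.6 and 33.2 FPKM untreated and 23.6 and 27.4 with MBP, a difference of -0.29. It was the only 1 of the 5 with groups that did not overlap. Over all tested genes, 23.5% had both MBP values under both controls, and groups did not overlap for 44.8% in either direction. Timp1, an inhibitor of matrix proteases, had 33.9 and 39.1 FPKM untreated and 42.9 and 37.1 with MBP. Serpina3n, an acute-phase protease inhibitor, stood at -0.10, the lipopolysaccharide receptor Tlr4 at 0.12 and the copper carrier Cp at -0.03, all with groups that overlapped. Under the filter, Il6 had 12, 7, 11 and 17 reads, and Lcn2, an acute-phase protein, had 1, 3, 3 and 1.

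C/EBP factors drive the fat cell programme together with the nuclear receptor Pparg. Of 19 listed genes 17 were in the table and 8 passed the filter. In limma's test 0 were called, 4 had a difference below 0, 2 had both MBP values under both controls and 2 both above, against 51.6%, 23.5% and 21.3% of all tested genes. The median was -0.03 and turned to 0.03 without control 1 and to 0.05 without MBP 2. Plin2, which coats lipid droplets in most cells, had 35.1 and 38.0 FPKM untreated and 30.5 and 31.4 with MBP, a difference of -0.23. Klf5, a transcription factor downstream of Cebpb and Cebpd in fat cell precursors, had 12.7 and 11.0 FPKM against 12.3 and 9.33, groups that overlapped. Acaca, which starts fatty acid synthesis, stood at -0.10, the insulin receptor Insr at 0.05 and Agpat2, an enzyme of lipid assembly, at -0.08. Pparg had 2, 0, 0 and 4 reads and Fabp4, a carrier of fatty acids in fat cells, 2, 2, 0 and 3.

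Myeloid genes, which include targets of Cebpa and Cebpe in granulocytes, were mostly low. Of 16 listed, 10 were in the table and 1, Cd68, a lysosomal protein found in many cell types, passed the filter at 3.85 to 4.45 FPKM. The summed level of the 10 was 4.83 and 4.96 FPKM untreated and 4.77 and 5.35 with MBP, ranges that overlapped. Of the 9 others, Csf1r, a receptor of macrophages, had 47, 52, 39 and 60 reads, and Cx3cr1, a receptor of microglia, 22, 13, 36 and 29. Both MBP values were higher for Cx3cr1 and both were lower for Spi1, on few reads. Over all tested genes 21.3% had both MBP values above both controls and 23.5% both under. The remaining 7 had at most 10 reads in any library, among them Spi1 with 3, 3, 2 and 2 and the granulocyte protein Ltf with 0, 0, 1 and 0.

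For Cebpz, a list of nucleolar and methyltransferase genes was taken, and 22 of 22 passed the filter. In limma's test 0 were called, 9 had a difference below 0, 5 had both MBP values under both controls and 5 both above, against 51.6%, 23.5% and 21.3% of all tested genes. The median was 0.01, with differences from -0.13 to 0.16, and turned to -0.02 without control 2 or without MBP 1. Npm1, the most abundant, is a nucleolar chaperone and had 137.9 and 136.1 FPKM untreated and 148.5 and 133.5 with MBP, groups that overlapped. Ncl, nucleolin, had 76.0 and 61.0 FPKM against 81.4 and 69.6, also overlapping. Nop2 stood at -0.09, Rrp1 at -0.13 and Noc2l, whose yeast counterpart pairs with that of Cebpz, at -0.02. The first 2 of these had both MBP values under both controls.

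**Figure D4:**
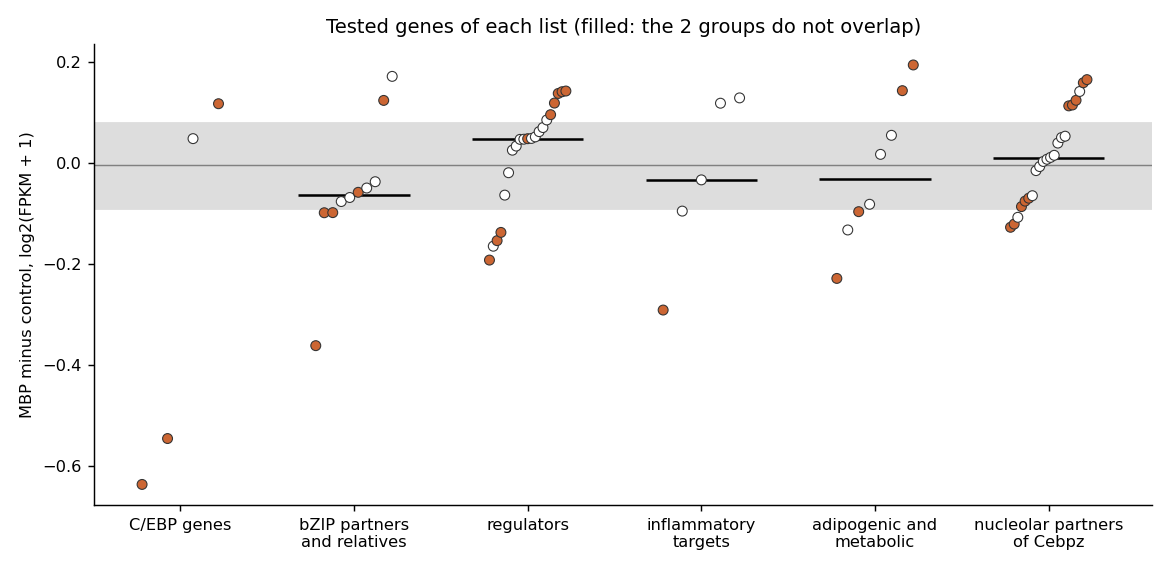
Each circle is a tested gene, with its difference MBP minus control in log2(FPKM + 1) on the vertical axis and its list on the horizontal axis. Filled circles have groups that do not overlap, bars are list medians (none is drawn for the C/EBP genes, which were picked on their values), and the grey line and band are the median and quartiles of all tested genes. Medians of the lists run from -0.06 to 0.05, and the points at -0.64 and -0.55 are Cebpd and Cebpb.

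The genes with profiles most like those of Cebpb and Cebpd were sought among 10365 other protein-coding genes by Euclidean distance over the 4 libraries, after each gene's log2(FPKM + 1) was centred on its mean. With 4 libraries this measure is a description. Closest to Cebpb were Romo1, a mitochondrial membrane protein (distance 0.0378), S100a13, a calcium-binding protein (0.0845), Fam46b (0.106), the histone gene Hist1h2ab (0.113), whose near-identical copies make it uncertain, and Ino80b, a chromatin remodelling subunit (0.143). Romo1 had 11.7 and 13.2 FPKM untreated and 9.17 and 7.54 with MBP, the same order of libraries as Cebpb. Closest to Cebpd were Acta1, an actin gene with near-identical relatives (0.0921), Atp5e, a subunit of ATP synthase (0.121), Sdf2l1 (0.123) and Creld2 (0.158), both of the endoplasmic reticulum, and Ier5l (0.128). Cebpd itself was number 37 from Cebpb, and Cebpb number 25 from Cebpd, at a distance of 0.26. The pair differed in the order of the MBP libraries. Cebpb had its higher MBP value in MBP 1 and Cebpd had its own in MBP 2. For both genes the counting intervals of MBP 1 and MBP 2 overlapped.

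The differences of the family kept their sign in each of the processing alternatives in which they had a value, as the plot by processing choice shows. Over these, Cebpb ran from -0.80 to -0.40 in 12 alternatives, Cebpd from -1.02 to -0.57 in 12, Cebpa from -0.31 to -0.11 in 10, Cebpg from 0.04 to 0.19 in 13 and Cebpz from 0.00096 to 0.09 in 13. The kept signs were partly fixed in advance. Dropping the filter or the trend, or keeping only protein-coding genes, leaves each difference as it was. For Cebpa, Cebpb, Cebpd and Cebpg, whose groups do not overlap, leaving out 1 library cannot turn the sign. Limma-voom on the recovered reads called 8 of 11943 genes (0.067%), all lower in MBP and Cebpd among them, against 0 in the test on FPKM. Since the family was picked on this contrast, that call adds no support for Cebpd.

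**Figure D5:**
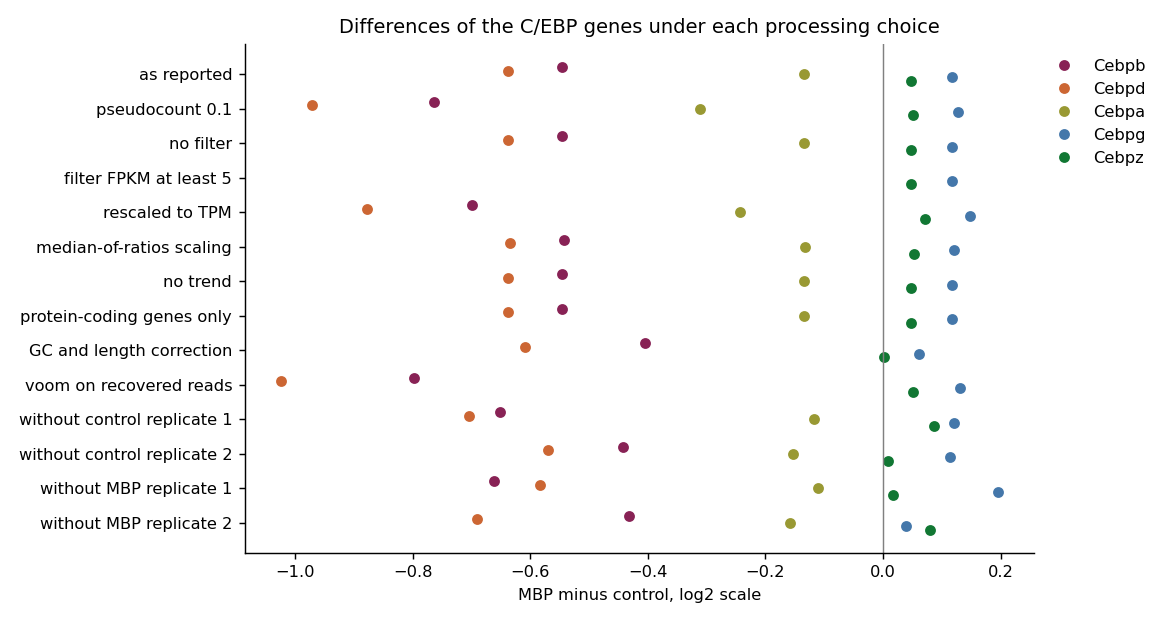
Each row is a processing choice, and the horizontal axis gives the difference MBP minus control on the log2 scale for each C/EBP gene. A gene has no point where a choice leaves it out. Points for Cebpb and Cebpd lie between -1.02 and -0.40, and points for Cebpg and Cebpz between 0.00096 and 0.19.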

How the data were processed

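Total RNA of 4 samples of C8-D1A cells was sequenced after ribosomal RNA depletion with a directional kit, per the labels' protocols. Per the submitters' processing notes, bcl2fastq, HISAT2 and the build GRCm38 were used. Not given in the sources used here: counting program, annotation and use of strand. FPKM values were deposited for 24169 genes. Columns were matched to samples by title, and replicates numbered by accession order, which pairs nothing. Date-like symbols (24) were restored from gene identifiers.

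Lengths and GC content came from GENCODE M21 (GRCm38), which held 24121 identifiers. FPKM times exon length fell on whole multiples (within 0.05) of 1 step per library for 100% of values under 1000 reads in 5822 single-exon genes, and for 91.7% to 91.9% of values above 0 of all genes. For Cebpz it did not, so its intervals are approximate. Values were tested as log2(FPKM + 1) with limma 3.58.1 (R 4.3.3; lmFit, eBayes with trend, two-sided, Benjamini-Hochberg). On 10 simulations of 12403 genes with 200 changed, it recovered 45.5%, 78.4% and 97.7% of 1.5-, 2- and 4-fold changes, and 4.78% of 1549 calls were false. The changes were added on the log2(FPKM + 1) scale with independent noise, without shifts tied to GC content. In the data the added 1 shrinks changes of low genes, so these rates do not hold for genes as low as Cebpb and Cebpd.

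The family, the 5 gene lists and the marker lists were chosen with earlier results of these data known. Named genes are the family, neighbours within 100 kb that passed the filter, the 5 most abundant tested genes of each list and the 5 nearest profiles of Cebpb and of Cebpd. Of the genes this rule names, 1 is not reported here. Marker genes, genes under the filter and those said to be named after their values were seen fall outside this rule. The design planned a comparison of proteins, which was not made here. The alternatives are given under the dependence on processing.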

Additional observations from a re-analysis of the deposited data

How the results depend on the processing

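The count of genes changed by MBP was 0 in limma's test and in 12 alternatives, and 8 with limma-voom on recovered reads. For Cebpb the difference was -0.76 with a pseudocount of 0.1 and -0.80 with limma-voom, and for Cebpd it was -0.97 and -1.02, and -0.88 after rescaling to TPM. A smaller pseudocount shrinks low values less. Where 1 library is left out, the remaining library of its group is assumed to vary like the other group. Without 1 library Cebpb ran from -0.66 to -0.43 and Cebpd from -0.70 to -0.57. The median of bZIP partners was 0.0176 after the GC and length correction, -0.11 without control 1, and from that to -0.02 over all 4 such fits. That of the nucleolar list was -0.0227 to 0.0492 without 1 library. That of the regulators was 0.0747 in TPM, 0.0136 after the GC and length correction, and 0.0189 (without control 1) to 0.0492 without 1 library. That of the inflammatory targets was 0.0064 without a filter, 0.0113 with a filter of 5, and -0.0523 to 0.0299 without 1 library. That of the adipogenic list was -0.11 with a filter of 5, and -0.0648 to 0.0506 without 1 library. The cause of these shifts in the medians was not tested. List medians were not tested. With RefSeq spans as lengths, chosen after seeing the data, Cebpb over Cebpd in controls was 0.747 in place of 1.25. A filter of 5 leaves out Cebpb and Cebpd, and Cebpa has no value with that filter, the GC and length correction or limma-voom. No paired analysis was possible because the sample titles of the 2 groups share fewer than 2 replicate numbers. The low read numbers of Cebpa, Cebpb and Cebpd limit their precision.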
